A study of Mus musculus with 17 samples.

Results

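The genes described here were 36 whose products fold secretory proteins in the endoplasmic reticulum (ER), sense unfolded ones or dispose of them. They were taken by symbol from a named list, and all 36 of the 55357 genes in the deposited tables were found and were high enough to be tested among 22784 genes. By role they were 11 chaperones and their partners, 8 enzymes of disulfide bonds and proline bonds, 6 stress sensors and factors, and 11 genes of ER-associated degradation (ERAD). The data were RNA-seq of β cells sorted from cultured islets of male mice on a C57BL/6 background. Control islets, labelled WT, came from mice with the RIP-Cre transgene, which expresses Cre recombinase from the rat insulin promoter, and a Cre-inducible tdTomato reporter at Rosa26. Pcbp2βKO islets came from mice that carried both of these and floxed Pcbp2 alleles (Pcbp2 fl/fl). After recovery at an intermediate glucose level, the culture lasted a further 72 hours, at either 2.8 mM glucose or 16.7 mM. Living tdTomato+ cells, in which Cre had acted on the reporter, were sorted from each sample. Control cells gave 3 samples at the lower glucose level and 4 at the higher, and Pcbp2βKO cells gave 5 at each. The age of these mice and the number of mice behind a sample are not given in the sources used here, so p-values measure the spread between samples, which may be technical.

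A β cell makes proinsulin in very large amounts, and each molecule must be folded and given its disulfide bonds in the ER before it can leave. BiP (Hspa5) and its partners hold unfolded chains, the protein disulfide isomerases and the oxidase ERO1β form the bonds, and ERAD draws failed molecules back into the cytosol for the proteasome. When unfolded protein builds up, 3 membrane sensors, IRE1α (Ern1), PERK (Eif2ak3) and ATF6, start the unfolded protein response, which raises the transcription of chaperone and ERAD genes. Excess glucose raises insulin synthesis and with it the load on this system. Inherited loss of PERK or of wolframin (Wfs1) causes diabetes in humans.

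The regulatory sequence best known for this gene set is the ER stress response element (ERSE), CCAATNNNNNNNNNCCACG, which ATF6 and XBP1 recognise together with the factor NF-Y. RefSeq promoters of 300 bases (250 before and 50 after the start of transcription, build GRCm38.p6) were available for 32 of the 36 members, and both strands were searched. ERSE was present in the promoters of 10 of these 32 members (Hspa5, Hsp90b1, Calr, Canx, Dnajc3, Creld2, Pdia6, Ero1b, Syvn1 and Derl3), against 0.119% of all 32851 promoters in the table. The related element ERSE-II (ATTGG, any base, then CCACG) was found in 2 members (Dnajb11 and Herpud1) against 0.0365% of all promoters. The letters TGACGTG, the core of the element to which XBP1 binds alone, were found in the promoter of Hspa5 and of no other member, against 2.01% of all promoters. The 9 elements below are shown because the genes that carry them responded to glucose in quite different ways in these cells, as described further on. Each is written 5′ to 3′ on the strand of the element, with the fixed letters in capitals and with its GRCm38.p6 position.
Hspa5, chr2:34772020-34772048, + strand: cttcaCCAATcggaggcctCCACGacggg
Calr, chr8:84847070-84847098, + strand: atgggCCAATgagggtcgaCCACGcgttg
Canx, chr11:50325795-50325823, - strand: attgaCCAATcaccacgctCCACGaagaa
Dnajc3, chr14:118937822-118937850, + strand: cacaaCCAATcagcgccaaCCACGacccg
Ero1b, chr13:12565677-12565705, - strand: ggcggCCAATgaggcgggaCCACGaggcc
Syvn1, chr19:6046527-6046555, + strand: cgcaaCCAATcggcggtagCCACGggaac
Derl3, chr10:75893237-75893265, - strand: gctagCCAATggggaagtcCCACGgtaga
Dnajb11 (ERSE-II), chr16:22857843-22857871, + strand: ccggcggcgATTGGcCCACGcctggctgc
Herpud1 (ERSE-II), chr8:94386368-94386396, + strand: cgggcgctgATTGGgCCACGttggacact
A match of letters is a description of the promoter and does not show that a factor was bound there in these cells.

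Levels are given below as CPM, which are counts relative to the size of the library, after scaling with TMM factors, which set the libraries so that most genes do not change, and levels of different genes are compared only as TPM, a unit that allows for transcript length. The libraries held between 47385513 and 82419400 estimated counts. Pcbp2 was lower in every Pcbp2βKO sample than in any control sample at the same glucose level. It measured 63.4, 73.4 and 50.7 CPM in control cells and 19.2, 17.5, 16.8, 15.5 and 18.2 CPM in Pcbp2βKO cells at 2.8 mM. At 16.7 mM it measured 35.0, 45.4, 44.4 and 36.7 CPM in control cells and 10.03, 5.81, 6.39, 8.48 and 7.61 CPM in Pcbp2βKO cells. All 10 β cell markers examined were above 1 CPM in some samples, 11 of 13 acinar markers were never above 1 CPM, and no endothelial or stellate marker passed it. In CPM of the whole library without TMM factors, summed α cell markers were between 463 and 2878 CPM in control samples and between 794 and 11484 CPM in Pcbp2βKO samples, the highest of these at 2.8 mM, with Irx1 never above 1 CPM. The 10 β cell markers summed to 130593 to 139479 CPM in control and 81926 to 118295 CPM in Pcbp2βKO cells at 2.8 mM, and to 274609 to 395372 and 337077 to 385512 CPM at 16.7 mM. The 4 macrophage markers summed to 7.88 to 28.2 CPM at 2.8 mM and 1.04 to 6.16 CPM at 16.7 mM, and Ppy, the marker of PP cells, was at 875 to 6209.8 CPM and 192 to 1087 CPM. The 3 δ cell markers summed to 275 to 456 CPM in control and 568 to 1599 CPM in Pcbp2βKO cells at 2.8 mM, and to 119.8 to 338 and 169 to 538 CPM at 16.7 mM. The 5 ductal markers summed to 541 to 602 CPM in control and 547 to 708 CPM in Pcbp2βKO cells at 2.8 mM. At 16.7 mM their sums were 421 to 963 and 366 to 506 CPM. Among them Krt7 was at 291 to 697 CPM, and Spp1 reached 649 CPM in control cells at 16.7 mM. The part of these markers in the results was not tested. In bulk RNA, fewer cells of a type and less RNA per cell cannot be told apart. At 16.7 mM 3 libraries, which are 1 of control cells (replicate 4) and 2 of Pcbp2βKO cells (replicates 4 and 5), stood apart from their groups. On the first principal component of log2 CPM they scored 9.9, 21.4 and 33.2, against 90.9 to 99.1 in the other 6 libraries at 16.7 mM and -105.5 to -42.4 at 2.8 mM. Counts of members called for glucose, and the genes of other lists given with fold changes, are given below with and without them.

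The members spanned a wide range of levels. Hspa5 was the most abundant, with a median of 1302 TPM over the 17 samples and a range of 679 to 2405 TPM, and Eif2ak3 the least, with a median of 3.31 TPM. Pdia3 and P4hb followed Hspa5 with medians of 556 and 555 TPM, and their ranges overlapped almost fully. Then came Hsp90b1 at 495 TPM, Pdia6 at 457 TPM and Ero1b at 432 TPM. Ero1b had the widest spread of these, from 119 to 645 TPM. The sensors were all scarce, with medians of 18.7 TPM for Ern1, 14.5 TPM for Atf6 and 11.1 TPM for Atf6b, and Xbp1 stood at 210 TPM (range 157 to 369 TPM).

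**Figure D1:**
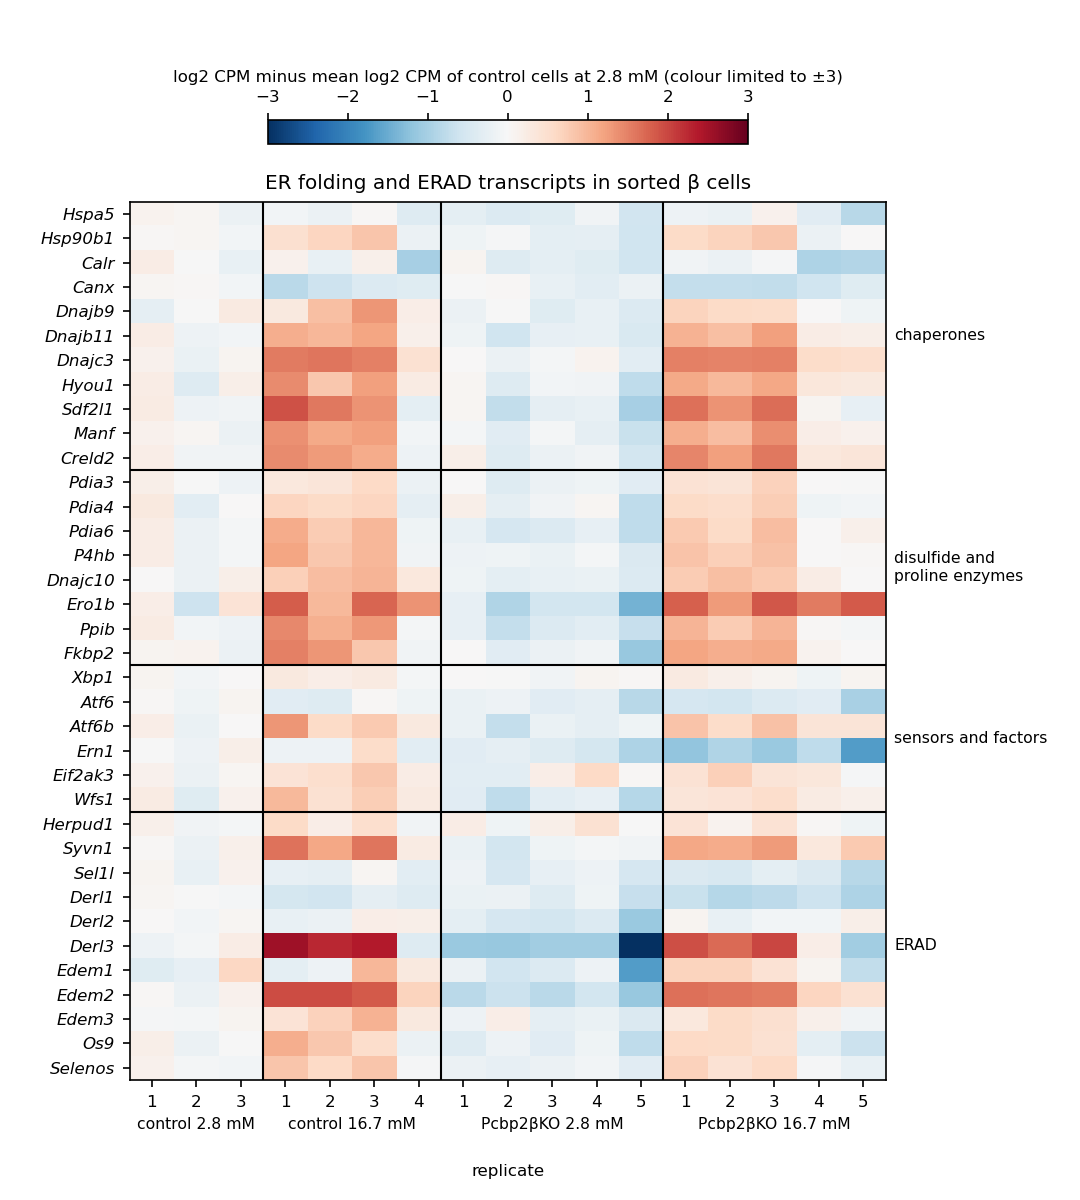
Colours show log2 CPM of the 36 members (rows, by role) in the 17 samples (columns, by group and replicate number) relative to the mean of control cells at 2.8 mM, red for higher and blue for lower. Replicates 1 to 3 at 16.7 mM are red for most chaperones and disulfide enzymes in both genotypes, while replicate 4 of control cells and replicates 4 and 5 of Pcbp2βKO cells are pale for most genes but red for Ero1b.

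The first comparison asked how sustained high glucose changed these transcripts in control β cells. In the edgeR quasi-likelihood test over all 22784 genes, with Benjamini-Hochberg adjustment (a call needs an adjusted p below 0.05 and at least a 1.5-fold difference), 13 of the 36 members (36.1%) were higher at 16.7 mM and 0 were lower, against 7.15% higher and 6.69% lower among all genes tested. The median log2 fold change was 0.63 over the members and 0.04 over all genes tested. The 13 were the chaperones Dnajb11, Dnajc3, Hyou1, Manf and Creld2, the enzymes Ero1b, Dnajc10 and Ppib, the sensor-group genes Atf6b and Wfs1, and the ERAD genes Syvn1, Edem2 and Edem3. Direction depended on the scaling: with libraries scaled by total counts alone, 4 members were higher and 2 lower, where 3.43% of all genes were higher and 17.8% lower. On the deposited TPM (limma on log2(TPM + 1)), 1 was higher (Edem2) and 8 were lower, where 1.1% of all genes were higher and 29.5% lower. Ins1 and Ins2 together took 9.83 to 10.5% of the counts and 30.8 to 35.1% of the TPM in control cells at 2.8 mM, and 22.3 to 33.1% of the counts and 56.9 to 60.5% of the TPM at 16.7 mM. The median of all genes moved with the scaling, to -0.35 for total counts and -0.24 for log2(TPM + 1), and the median of the members lay 0.59 above that of all genes with TMM, 0.56 above it with total counts, 0.07 above it with log2(TPM + 1) and 0.38 above it with log2(TPM + 0.1). The changes that follow are on TMM scaling. The replicate number was also fitted as a block, a single factor over all samples. It pairs same-numbered control samples of both glucose levels, and it also joins same-numbered samples of both genotypes. Replicate 4 of control cells at 16.7 mM has no control partner at 2.8 mM. With the block, 22 members were higher and 0 lower, where 10.2% of all genes were higher and 10.7% lower. The 9 added members were Hsp90b1, Dnajb9, Sdf2l1, Pdia6, P4hb, Fkbp2, Derl3, Os9 and Selenos. Calls over all genes also rose without the 3 libraries that stood apart, to 10.2% higher and 11.8% lower. Counts from fits with samples left out therefore describe the stability of the calls only. Leaving out replicate 4 of control cells at 16.7 mM gave 22 members higher and 1 lower, and leaving out any 1 of the other 6 control samples gave 4 to 7 members called. Dnajc3, Ero1b, Syvn1 and Edem2 were called in each of these fits.

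**Figure D2:**
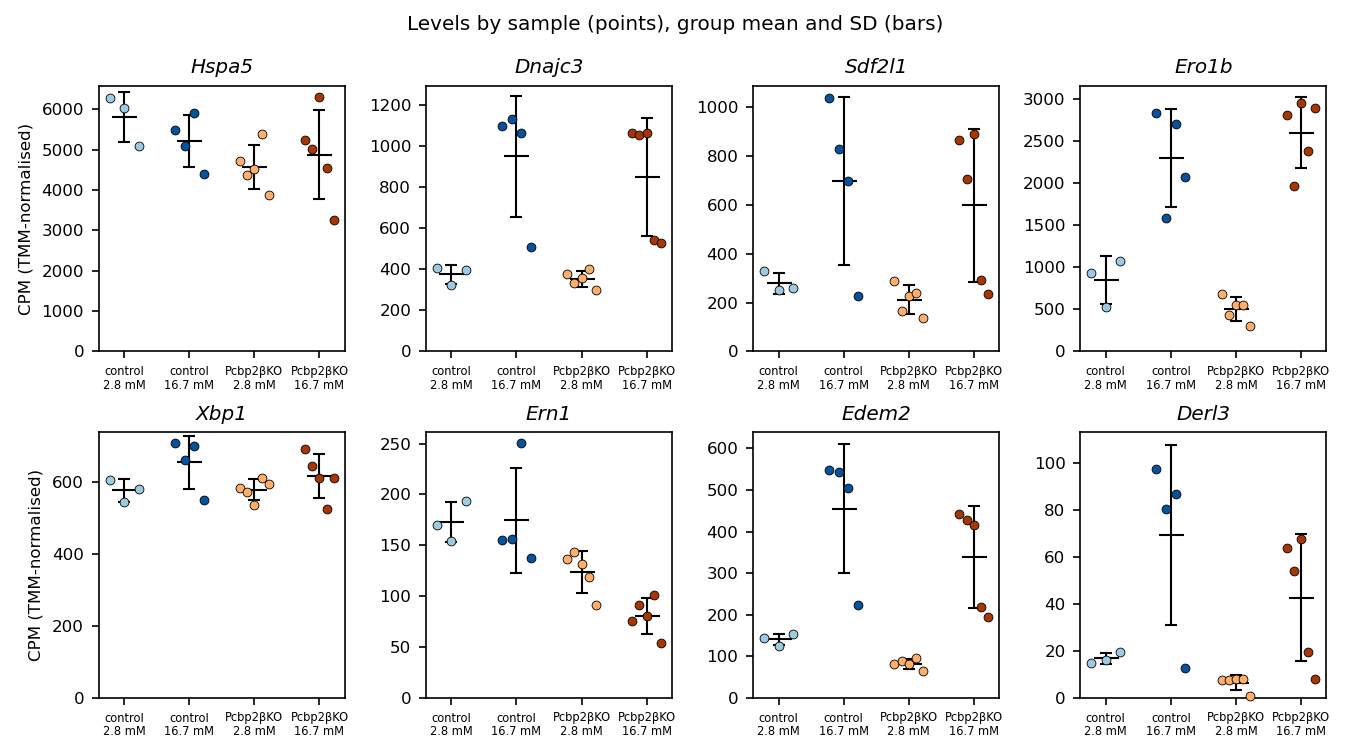
CPM (TMM-normalised, vertical axes from 0) of 8 members in each sample, with the group mean and SD (n = 3, 4, 5 and 5). Dnajc3, Sdf2l1, Edem2 and Derl3 split at 16.7 mM into high and low libraries, Ero1b was high in all 9, Hspa5 and Xbp1 overlapped between glucose levels, and Ern1 was lowest in Pcbp2βKO cells at 16.7 mM.

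Among the chaperones, several partners of BiP were higher at 16.7 mM on TMM scaling and BiP itself did not pass the test. Hspa5 (chr2:34661982-34668880, GRCm39) measured 6269, 6038 and 5103 CPM in control cells at 2.8 mM and 5498, 5079.8, 5897 and 4405 CPM at 16.7 mM. Its values in Pcbp2βKO cells were 4720.1, 4379, 4516, 5380.1 and 3882 CPM at 2.8 mM and 5233, 5006, 6309, 4553 and 3266 CPM at 16.7 mM. The groups overlapped in both genotypes, with log2 differences of -0.15 ± 0.19 (SE, interval of 2 SE -0.53 to 0.23) and 0.09 ± 0.16 (interval -0.22 to 0.41). On total counts and on TPM, Hspa5 was lower at 16.7 mM in both genotypes; its mean fell from 2126 ± 139 to 1125 ± 156 TPM (SD, n = 3 and 4) in control cells, a log2 change of -0.93 on the log2(TPM + 1) scale (limma, adjusted p = 0.00271).

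Dnajc3 (p58IPK), a co-chaperone of BiP that also inhibits PERK, measured 406, 323 and 396 CPM at 2.8 mM and 1099, 1132, 1063 and 511 CPM at 16.7 mM in control cells. In Pcbp2βKO cells it measured 376, 332, 359, 401 and 298 CPM at 2.8 mM and 1062, 1054, 1064, 543 and 527 CPM at 16.7 mM. Every sample at 16.7 mM was above every sample at 2.8 mM, and the low libraries of the high-glucose groups were the 3 that stood apart. Its log2 fold change was 1.34 ± 0.29 in control cells (adjusted p = 0.00521) and 1.27 ± 0.23 in Pcbp2βKO cells (adjusted p = 5.38e-04). Dnajb11 (ERdj3), the soluble partner that brings unfolded chains to BiP, measured 212, 164 and 171 CPM against 386, 363, 415 and 201 CPM in control cells. It measured 166, 121, 152, 156 and 132 CPM against 371, 341, 426, 210.0 and 203 CPM in Pcbp2βKO cells. Only replicate 4 of control cells at 16.7 mM overlapped with a low-glucose group, and the log2 fold changes were 0.90 (adjusted p = 0.0259) and 1.09 (adjusted p = 9.06e-04).

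Sdf2l1, an ER protein found in complex with ERdj3, was split among the high-glucose libraries. It measured 329.6, 250.8 and 258 CPM in control cells at 2.8 mM and 1038, 827, 700.1 and 226 CPM at 16.7 mM. In Pcbp2βKO cells the values were 287, 167, 229, 238 and 139 CPM and 868, 707, 889, 293 and 234 CPM. Of the high-glucose libraries, 6 lay above 700 CPM and 3 lay within or near the low-glucose range, and the log2 difference passed in Pcbp2βKO cells (1.498 ± 0.38, adjusted p = 0.00635) and not in control cells (1.32 ± 0.47, adjusted p = 0.0645). Manf, an ER-resident protein that cells also secrete under stress, measured 263, 252 and 213 CPM against 622, 532, 568 and 229 CPM in control cells. It measured 231, 189, 232, 201 and 152 CPM against 513, 456, 635, 278 and 264 CPM in Pcbp2βKO cells. Creld2, an ER-stress-inducible protein with disulfide isomerase activity, measured 197, 159.8 and 158 CPM against 457, 415, 371 and 154 CPM in control cells and 194, 130.2, 151, 159 and 117 CPM against 473, 402, 514, 212 and 219 CPM in Pcbp2βKO cells. Both genes had control replicate 4 inside or below the low-glucose range and no overlap in Pcbp2βKO cells. The log2 fold changes of Manf were 1.01 (adjusted p = 0.0370) in control and 1.09 (adjusted p = 0.00352) in Pcbp2βKO cells, and those of Creld2 were 1.03 (adjusted p = 0.0480) and 1.28 (adjusted p = 0.00205).

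The remaining chaperones did not share one response. Hyou1 (GRP170), the nucleotide exchange factor of BiP, rose in both genotypes (0.97 and 1.06), and Hsp90b1 (GRP94) and Dnajb9 (ERdj4) passed the test in Pcbp2βKO cells, with log2 fold changes of 0.68 and 0.60 against 0.49 and 0.74 in control cells. With the replicate block both passed in control cells, at 0.59 for Hsp90b1 (adjusted p = 0.0144) and 0.81 for Dnajb9 (adjusted p = 0.00842), and Dnajb9 was short of the fold in Pcbp2βKO cells, at 0.56. The lectin chaperones calreticulin (Calr) and calnexin (Canx), which hold newly glycosylated proteins, did not follow the others. Calr had log2 differences of -0.18 and -0.07, and Canx had -0.54 (adjusted p = 0.0149) and -0.49 (adjusted p = 0.00446), past the adjusted p but not the fold of 1.5. Canx passed as lower on total counts (-0.91 and -0.95) and on log2(TPM + 1) (-1.29 and -1.50), scales on which most genes called were lower. Without the 3 libraries that stood apart Canx passed as lower on TMM scaling too (-0.63 and -0.62). Calr passed as lower on log2(TPM + 1) (-1.01 and -1.15). Canx was lower without overlap at 16.7 mM in both genotypes, from 1235 ± 62.3 to 848 ± 120.2 CPM (SD) in control cells.

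All 8 enzymes of disulfide and proline bonds had positive log2 differences with glucose in both genotypes on TMM scaling, although on log2(TPM + 1) 5 were negative in control cells and 6 in Pcbp2βKO cells. Ero1b (chr13:12580716-12626285, GRCm39), the pancreatic oxidase that recharges protein disulfide isomerases, had the largest change of the 8 on TMM scaling. It measured 928, 531 and 1080.0 CPM in control cells at 2.8 mM and 2839, 1590.0, 2710.1 and 2073 CPM at 16.7 mM. In Pcbp2βKO cells it measured 685, 431, 556, 551 and 305 CPM at 2.8 mM and 2810.0, 1964, 2954, 2388 and 2895 CPM at 16.7 mM. No sample at 16.7 mM overlapped with a sample at 2.8 mM, and the 3 libraries that stood apart were as high as the rest. The change was 2.72-fold in control cells (log2 1.44 ± 0.28, adjusted p = 0.00312) and 5.15-fold in Pcbp2βKO cells (log2 2.36 ± 0.24, adjusted p = 4.04e-06). In Pcbp2βKO cells Ero1b was higher under all 3 scalings, with log2 fold changes of 1.88 on total counts and 1.43 on log2(TPM + 1).

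Ppib (cyclophilin B), a prolyl isomerase, measured 123, 98.9 and 94.4 CPM against 283, 219, 259 and 101 CPM in control cells. Pcbp2βKO cells had 87.8, 64.2, 78.7, 84.6 and 65.1 CPM against 213, 179, 212, 108 and 101 CPM. Fkbp2, another prolyl isomerase of the ER, measured 141.7, 143.7 and 117.6 CPM against 384.5, 332.3, 234.3 and 124.8 CPM in control cells and 134.9, 104.9, 119.2, 125.0 and 60.4 CPM against 304.9, 286.1, 295.6, 143.8 and 135.2 CPM in Pcbp2βKO cells. For both, the groups were apart in Pcbp2βKO cells and joined by replicate 4 in control cells. Ppib passed in both genotypes (1.03 and 1.09), and Fkbp2 had 1.00 in control cells (adjusted p = 0.0663) and rose by 1.10 in Pcbp2βKO cells (adjusted p = 0.00839). Of the 4 protein disulfide isomerases, Pdia6 (0.94) and P4hb (0.74) rose in Pcbp2βKO cells and Pdia3 and Pdia4 passed in neither genotype at the fold of 1.5. In control cells Pdia6 had 0.75 (adjusted p = 0.0592) and P4hb had 0.79 (adjusted p = 0.0516), short of the adjusted p. Dnajc10 (ERdj5), the reductase that opens disulfides before disposal, rose in both (0.76 and 0.82).

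**Figure D3:**
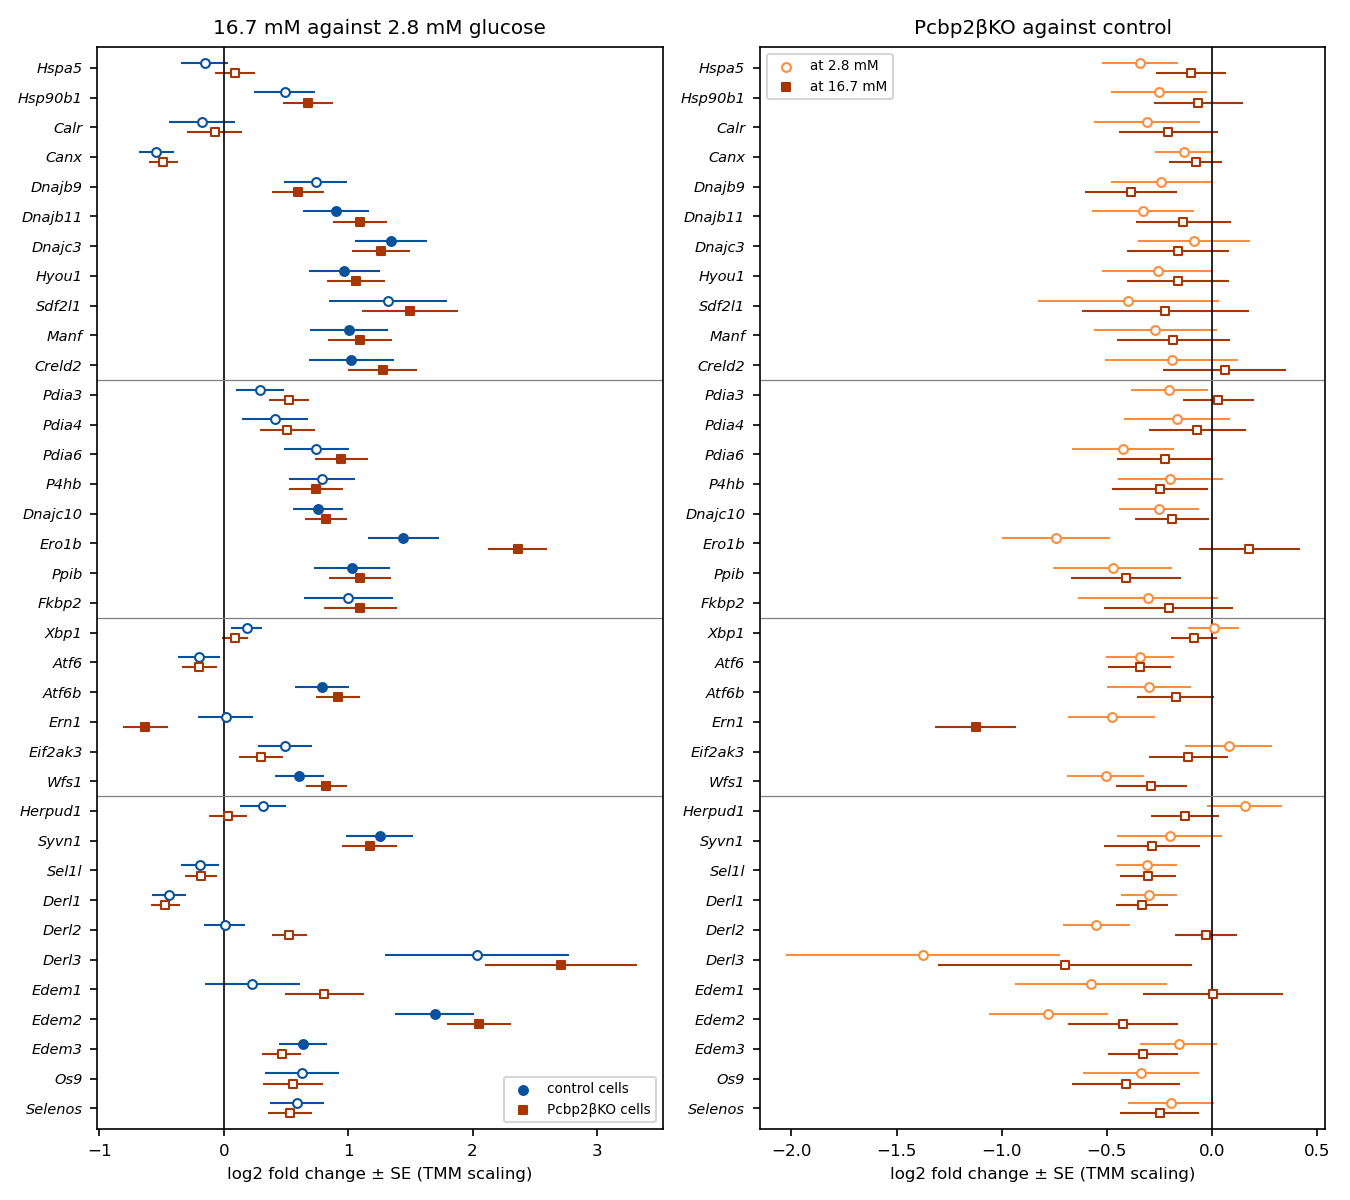
Log2 fold changes (TMM scaling) with SE for the 36 members, 16.7 mM against 2.8 mM on the left (circles, control cells, and squares, Pcbp2βKO cells) and Pcbp2βKO against control on the right (circles, 2.8 mM, and squares, 16.7 mM). Filled symbols passed an adjusted p of 0.05 and a fold of 1.5: 13 and 20 on the left, and on the right Ern1 at 16.7 mM alone.

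Of the 6 sensors and factors, Atf6b and Wfs1 rose with glucose in both genotypes on TMM scaling, Ern1 fell in Pcbp2βKO cells, and Xbp1, Atf6 and Eif2ak3 passed in neither. Xbp1 (chr11:5470606-5483027, GRCm39), whose mRNA is cut by IRE1α and rejoined to encode the active factor, measured 606, 544 and 581 CPM in control cells at 2.8 mM and 710.3, 661, 699 and 551 CPM at 16.7 mM. In Pcbp2βKO cells it measured 582, 572, 536, 613 and 594 CPM and 692, 645, 611, 527 and 610.3 CPM. The groups overlapped, and the intervals of the log2 difference were -0.07 to 0.44 and -0.12 to 0.30 on TMM scaling. On log2(TPM + 1) Xbp1 was lower at 16.7 mM, with log2 differences of -0.60 in control and -0.93 in Pcbp2βKO cells. Atf6 measured 191, 171 and 198 CPM against 147, 142, 190.3 and 172 CPM in control cells. In Pcbp2βKO cells Atf6 measured 163, 166, 148, 153 and 104 CPM against 132, 127, 140.5, 146 and 95.6 CPM. Its log2 differences with glucose were -0.20 and -0.20 on TMM scaling and passed in neither genotype. On log2(TPM + 1) they were -0.93 and -1.13 and passed as lower.

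Eif2ak3, which encodes PERK, measured 17.4, 14.1 and 16.5 CPM against 21.1, 22.4, 27.8 and 18.7 CPM in control cells. In Pcbp2βKO cells the values were 12.8, 12.8, 18.3, 24.1 and 16.4 CPM and 21.4, 26.1, 20.8, 20.03 and 15.6 CPM. The control groups did not overlap, but the log2 difference of 0.49 ± 0.22 did not pass (adjusted p = 0.137). Wfs1, which encodes wolframin, an ER membrane protein that dampens ATF6, measured 188.7, 122.1 and 171.8 CPM against 311.9, 217.7, 262.2 and 189.3 CPM in control cells. It measured 125.7, 93.1, 127.0, 133.1 and 87.3 CPM against 204.7, 209.3, 228.9, 186.1 and 174.6 CPM in Pcbp2βKO cells. Wfs1 was higher at 16.7 mM without overlap in both genotypes, with log2 fold changes of 0.61 ± 0.20 (adjusted p = 0.0428) and 0.83 ± 0.16 (adjusted p = 9.00e-04), although on log2(TPM + 1) both differences were -0.17. Atf6b, a relative of Atf6, rose in both genotypes (0.79 and 0.92), and on log2(TPM + 1) its differences were -0.01 and -0.08.

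The spliced form of Xbp1 could be looked for directly, because the deposited tables list it as a transcript of its own. It lacks 26 bases that 3 other listed transcripts hold, among them the main one, Xbp1-201, and that IRE1α removes. The segment is shown because its removal is the splicing step that IRE1α carries out. It lies on the + strand at chr11:5474278-5474303 (GRCm39), within the coding exons of Xbp1, and is in capitals here with 2 flanking bases on each side. Repeated bases at its ends allow 7 placements that give the same spliced sequence, and the leftmost is shown.
Xbp1 26-base segment: ccGCAGCACTCAGACTATGTGCACCTCTgc
The spliced transcript was estimated at 0 to 11.6 counts in control cells at 2.8 mM, 0 to 10.3 at 16.7 mM, 0 to 28.5 in Pcbp2βKO cells at 2.8 mM and 0 to 8.96 at 16.7 mM, out of 34735 to 59514 counts for all Xbp1 transcripts of a sample. Its share was at most 0.059%, and Xbp1-201 took 95.2 to 97.0% in every sample. The highest values, 28.5, 20.9 and 16.1 counts, were those of 3 Pcbp2βKO samples at 2.8 mM, and the groups overlapped. The listed spliced transcript is also shorter than Xbp1-201, at 1116 against 2129 bases, so the 2 differ in more than this segment and these counts are not a measure of the spliced fraction.

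Ern1 (chr11:106283818-106378686, GRCm39), which encodes the sensor that makes this cut, differed between genotypes and is described with that comparison below.

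Of the 11 ERAD genes, 3 rose with glucose in each genotype on TMM scaling: Syvn1 and Edem2 in both, Edem3 in control cells and Derl3 in Pcbp2βKO cells. Edem2 (chr2:155542455-155571395, GRCm39), which starts the mannose trimming that marks a glycoprotein for disposal, measured 144, 125 and 153 CPM in control cells at 2.8 mM and 548, 544, 505 and 223 CPM at 16.7 mM. In Pcbp2βKO cells it measured 80.6, 89.6, 80.6, 95.1 and 64.3 CPM at 2.8 mM and 442, 428, 416, 218 and 194 CPM at 16.7 mM. No sample at 16.7 mM reached down to the 2.8 mM range, though the 3 libraries apart were the lowest of theirs. The changes were 3.24-fold (log2 1.69 ± 0.32, adjusted p = 0.00226) in control and 4.14-fold (log2 2.05 ± 0.26, adjusted p = 2.26e-05) in Pcbp2βKO cells. Edem2 was the one member that passed as higher at 16.7 mM in both genotypes under TMM, total counts and log2(TPM + 1), with log2 fold changes of 0.79 and 0.90 on the last.

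Derl3, a derlin of the retrotranslocation channel best known from secretory tissues, measured 15.1, 16.1 and 19.6 CPM against 97.5, 80.4, 86.9 and 12.8 CPM in control cells. Pcbp2βKO cells had 7.81, 7.61, 8.14, 8.22 and 0.889 CPM against 63.8, 54.2, 67.9, 19.4 and 8.20 CPM. Of the high-glucose libraries, 6 lay between 54.2 and 97.5 CPM, and the 3 libraries apart between 8.20 and 19.4 CPM. The change passed in Pcbp2βKO cells (log2 2.71 ± 0.61, adjusted p = 0.00263) and not in control cells (log2 2.03 ± 0.74, adjusted p = 0.0690). Syvn1, the ubiquitin ligase HRD1, measured 46.0, 39.5 and 49.4 CPM against 138, 101, 137 and 53.5 CPM in control cells. It measured 39.2, 30.4, 41.2, 42.7 and 41.9 CPM against 101, 97.0, 109, 56.1 and 77.6 CPM in Pcbp2βKO cells. The groups were apart in both genotypes, with log2 fold changes of 1.25 (adjusted p = 0.00538) and 1.17 (adjusted p = 6.19e-04).

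Sel1l, Herpud1 and Derl1, which are partners of HRD1, passed the full criterion in neither genotype on TMM scaling. Sel1l, its adaptor, had log2 differences of -0.19 (interval -0.49 to 0.12) and -0.18 (interval -0.44 to 0.07). Herpud1, its scaffold, had 0.31 (interval -0.06 to 0.69) and 0.03 (interval -0.27 to 0.34). Derl1 was lower at 16.7 mM by adjusted p, with -0.44 (adjusted p = 0.0387) and -0.47 (adjusted p = 0.00482), short of the fold of 1.5. Of the others, Edem3 rose in control cells (0.64), and Edem1, Os9, Selenos and Derl2 passed the full criterion in neither genotype.

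The second comparison repeated the glucose contrast in Pcbp2βKO cells. Here 19 members (52.8%) were higher and 1, Ern1, was lower, against 13.4% higher and 10.4% lower among all genes tested, and the median log2 fold change was 0.71 over the members and 0.01 over all genes. With total counts 8 members were higher and 5 lower, where 6.5% of all genes were higher and 28% lower, and with log2(TPM + 1) 3 were higher (Ero1b, Edem2 and Derl3) and 9 lower, where 1.51% of all genes were higher and 37.2% lower. The median of the members lay 0.70 above that of all genes with TMM, 0.67 above it with total counts, 0.02 above it with log2(TPM + 1) and 0.40 above it with log2(TPM + 0.1). The 2 glucose comparisons used different samples but 1 estimate of the spread. Without the 3 libraries that stood apart, 25 members were higher and 2 lower in Pcbp2βKO cells, where 14.2% of all genes were higher and 14.4% lower. In control cells 22 were then higher and 1 lower, where 10.2% of all genes were higher and 11.8% lower. Counted by samples that do not overlap in CPM, 10 members were higher and 2 lower in control cells, where 11.8% and 12.3% of all genes were, and 16 were higher and 1 lower in Pcbp2βKO cells, where 10.9% and 10.8% of all genes were.

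**Figure D4:**
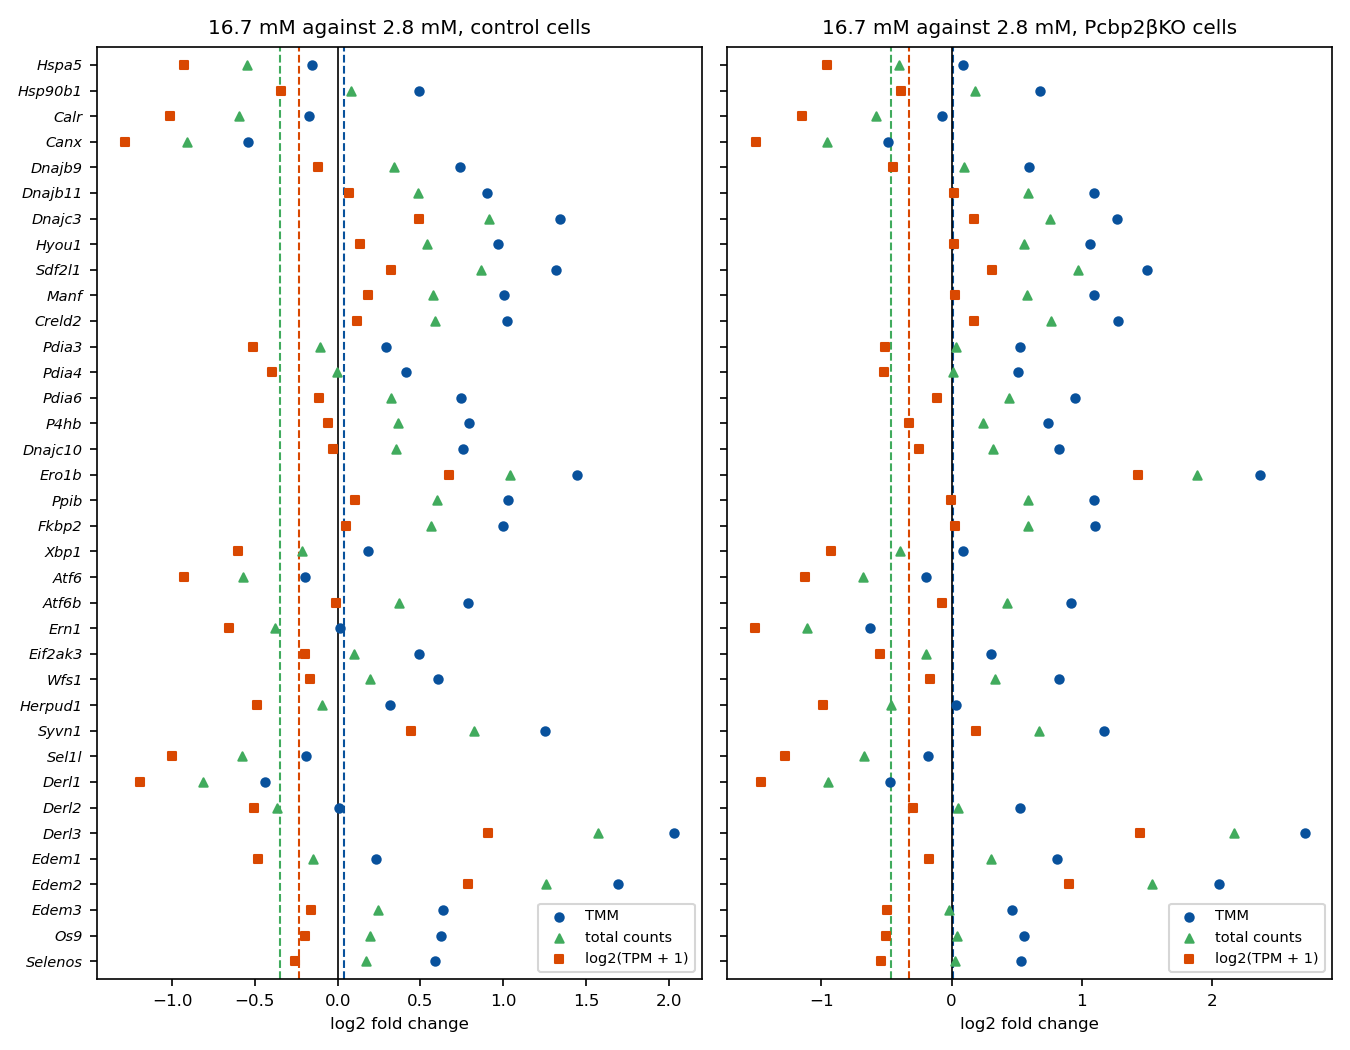
Log2 fold change with glucose for the 36 members under TMM scaling (circles), total counts (triangles) and log2(TPM + 1) (squares), in control cells (left) and Pcbp2βKO cells (right). Dashed lines mark the median of all genes tested under each scaling (0.04, -0.35 and -0.24 in control cells). Total counts and log2(TPM + 1) move the members to the left of their TMM values, with Derl3, Edem2 and Ero1b furthest to the right under each of them and Canx and Derl1 among the furthest to the left, so that members between them change sign with the scaling.

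A ratio between members within a sample does not depend on the scaling, and it showed that the members changed unequally. Ero1b amounted to 0.0896 to 0.218 of Hspa5 in TPM in control cells at 2.8 mM and 0.326 to 0.537 at 16.7 mM. In Pcbp2βKO cells the ratio was 0.0884 to 0.146 at 2.8 mM and 0.424 to 0.949 at 16.7 mM. Edem2 to Hspa5 was 0.0254 to 0.0369 against 0.0609 to 0.128 in control cells and 0.0199 to 0.0250 against 0.0578 to 0.102 in Pcbp2βKO cells. Of the other 35 members, 23 had a higher ratio to Hspa5 at 16.7 mM without overlap in control cells and 0 a lower one, where 14.5% and 5.91% of all other genes tested did. In Pcbp2βKO cells 20 had a higher and 1 (Derl1) a lower ratio, where 7.51% and 5.42% of all other genes tested did. As a share of the summed TPM of the 36 members, Hspa5 was 21.5 to 25.3% in control cells at 2.8 mM and 13.8 to 19.4% at 16.7 mM, and 20.6 to 23.8% and 13.9 to 18.7% in Pcbp2βKO cells. The summed level of the 36 members was 22379 ± 1721 CPM in control cells at 2.8 mM and 29441 ± 6278 CPM at 16.7 mM (SD), but 9189 ± 744 TPM and 7300 ± 1092 TPM, so the direction of the sum also turned with the scale.

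The 10 members with ERSE in the promoter did not respond as 1 group. In control cells 4 of them rose on TMM scaling (Dnajc3, Creld2, Ero1b and Syvn1) and their log2 fold changes ran from -0.54 (Canx) to 2.03 (Derl3), with a median of 0.89, and of the 22 other members with a promoter 7 rose, with a median of 0.62. In Pcbp2βKO cells 7 of the 10 and 10 of the 22 rose, with medians of 1.06 and 0.58. Hspa5, Calr and Canx carry the element shown above and had differences of -0.15, -0.18 and -0.54 in control cells on TMM scaling and were lower at 16.7 mM on log2(TPM + 1).

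The third comparison asked what loss of Pcbp2 changed at 16.7 mM, and it shares the samples at 16.7 mM with the first and second. Of the members, 0 were higher and 1 was lower, where 0.29% of all genes tested were higher and 1.42% lower. The gene was Ern1, the sensor IRE1α. It measured 155, 156, 251.03 and 137 CPM in control cells and 75.2, 91.3, 80.1, 101 and 54.0 CPM in Pcbp2βKO cells at 16.7 mM. At 2.8 mM it measured 170.4, 154 and 194 CPM in control cells and 136, 143, 131, 119 and 90.9 CPM in Pcbp2βKO cells. At both glucose levels every Pcbp2βKO sample was below every control sample. The difference at 16.7 mM was a log2 fold change of -1.12 ± 0.19 (adjusted p = 0.00292), and at 2.8 mM it was -0.48 ± 0.21 and did not pass (adjusted p = 0.326). The call at 16.7 mM was made under each of the scalings, filters, tools and single-sample omissions tried, with log2 fold changes of -1.24 to -0.90 when 1 sample was left out. Within Pcbp2βKO cells Ern1 was lower at 16.7 mM than at 2.8 mM (-0.63 ± 0.18, adjusted p = 0.0137), a call that fell short of the fold of 1.5 when replicate 2 at 2.8 mM or replicate 5 at 16.7 mM was left out or with length-scaled counts (-0.57), and within control cells the difference was 0.02 ± 0.22. The test of this difference between the genotypes, the interaction, gave -0.65 ± 0.29 and did not pass (adjusted p = 1.000). At 16.7 mM Ern1 was also lower relative to Hspa5, at 0.00669 to 0.0114 of it in TPM in Pcbp2βKO cells against 0.0147 to 0.0225 in control cells. At 2.8 mM these ratios overlapped, at 0.0113 to 0.0177 in Pcbp2βKO cells and 0.0127 to 0.01905 in control cells. The full-length coding transcript Ern1-201 held 51.6 to 71.3% of Ern1 TPM in the 17 samples, and its mean was 12.2 TPM in control and 5.27 TPM in Pcbp2βKO cells at 16.7 mM.

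By samples that do not overlap in CPM, 0 members were higher and 2 (Ern1 and Derl1) lower in Pcbp2βKO cells at 16.7 mM, where 1.85% of all genes tested were higher and 2.64% lower. Derl1 had a log2 difference of -0.33 ± 0.12 (adjusted p = 0.239). For the other members the differences were small and negative more often than positive, with 4 of 36 above 0 and a median of -0.20, where the median of all genes was 0.01. The median was -0.11 with the replicate block. At an unadjusted p under 0.05 there were 4 members, where 12.1% of all genes tested were. Hspa5 at -0.10 (interval -0.43 to 0.23) and Ero1b at 0.18 (interval -0.30 to 0.66) were among those whose interval spans 0.

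The fourth comparison was the same at 2.8 mM, and it shares the samples at 2.8 mM with the first and second. By edgeR 0 members were called in either direction, where 0.255% of all genes tested were higher and 1.78% lower. At an unadjusted p under 0.05 there were 9 members, where 12.9% of all genes tested were, and DESeq2 called 0. The median over the members was -0.30, where that of all genes tested was 0.03, and 3 of 36 were above 0. With the replicate block the median was -0.05 and 9 members changed sign. Without overlap in CPM, 8 members were lower in Pcbp2βKO cells (Atf6, Derl1, Derl2, Derl3, Edem2, Ern1, Pdia6 and Ppib) and 0 higher, where 6.88% of all genes tested were lower and 4.06% higher. The members with the largest differences were Derl3 at -1.38 ± 0.65 (adjusted p = 0.386), Edem2 at -0.78 ± 0.28 (adjusted p = 0.211) and Ero1b at -0.74 ± 0.26 (adjusted p = 0.180). Derl2, another derlin, came nearest to the threshold, at -0.55 ± 0.16 (adjusted p = 0.0882). Replicate 5 of Pcbp2βKO cells at 2.8 mM was the lowest of its group for Derl3, at 0.889 CPM against 7.61 to 8.22 CPM in the other 4.

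The last test asked whether the glucose response differed between the genotypes. By edgeR 0 members were called for the interaction, where 0.00439% of all genes tested were called higher and 0% lower. At an unadjusted p under 0.05 there were 3, where 4.57% of all genes tested were, and DESeq2 called 0. Ero1b had the largest of these, with an interaction of 0.92 ± 0.35 (interval 0.21 to 1.63, adjusted p = 1.000), from a low-glucose level of 846 ± 283 CPM in control and 506 ± 144 CPM in Pcbp2βKO cells and high-glucose levels of 2303 ± 581 and 2602 ± 420.3 CPM (SD). For Ern1 and Derl2 it was -0.65 ± 0.29 and 0.52 ± 0.22. That more members were called in Pcbp2βKO than in control cells does not show a larger response.

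Other genes of the same pathways were examined from lists of 44 folding and modifying enzymes, 30 ERAD genes and 20 genes of unfolded-protein signalling, 19 of them tested. With glucose, 8 folding genes were higher and 1 lower in control cells, and 13 and 3 in Pcbp2βKO cells, to be read against the 7.15% and 6.69% of all genes in control and the 13.4% and 10.4% in Pcbp2βKO cells. Fkbp11, a prolyl isomerase of secretory cells, changed most among those called in both, from 28.7 ± 2.43 to 240.5 ± 125 CPM in control cells (SD, log2 3.07, adjusted p = 0.00266) and from 18.5 ± 2.44 to 160.5 ± 99.5 CPM in Pcbp2βKO cells (log2 3.11, adjusted p = 9.58e-05). The 3 libraries that stood apart were its lowest at 16.7 mM, at 58.7 CPM in control and 66.0 and 41.4 CPM in Pcbp2βKO cells, against 202 to 342 CPM in the other 6. Without them its log2 fold changes were 3.37 and 3.61. Among the ERAD genes, 2 of 30 were higher and 3 lower in each genotype, which is near or below the share of all genes, apart from those lower in control cells. The lower genes were Erlin1, Erlin2 and Ubxn6 in control cells and Ube2j2, Erlin1 and Ube2g1 in Pcbp2βKO cells. Erlin1 fell from 60.7 ± 2.11 to 28.5 ± 11.9 CPM in control and from 44.9 ± 7.82 to 25.8 ± 4.36 CPM in Pcbp2βKO cells (SD). The higher genes were Erlec1 and Vcp in both genotypes. Erlec1, an ER lectin, had log2 fold changes of 1.72 and 2.03 (1.93 and 2.40 without the 3 libraries), and Vcp, the ATPase that pulls substrates from the membrane, had 0.90 and 1.11 (1.00 and 1.22 without them). Of the 19 signalling genes tested, 3 were higher (Atp2a3, Creb3l2 and Serp1) and 2 lower (Ddit3 and Ppp1r15a) in control cells. In Pcbp2βKO cells 2 were higher (Atp2a3 and Creb3l2) and 2 lower (Ddit3 and Trib3). These counts are to be read against the same shares of all genes, and those of Pcbp2βKO cells are near or below them. Ddit3 (CHOP), the factor that the PERK branch induces under lasting stress, fell with glucose from 642 ± 148 to 105 ± 109 CPM in control cells (SD, log2 -2.61, adjusted p = 0.0166) and from 527 ± 35.3 to 63.8 ± 77.2 CPM in Pcbp2βKO cells (log2 -3.05, adjusted p = 0.00103). At 16.7 mM replicate 4 was the highest for Ddit3 in both genotypes, at 269 CPM in control and 202 CPM in Pcbp2βKO cells, against 22.7 to 64.7 CPM in the other 7. Without the 3 libraries its log2 fold changes were -3.67 and -4.24. Trib3, a target of CHOP, was lower in Pcbp2βKO cells (log2 -2.16, adjusted p = 0.00498). In control cells Trib3 had -1.70 and did not pass (adjusted p = 0.0697), whereas without the 3 libraries it fell in control (-2.54, adjusted p = 2.64e-06) and in Pcbp2βKO cells (-3.25). Between the genotypes 0 genes of these lists were called at 16.7 mM by edgeR, where 7 folding genes, 3 ERAD genes and 1 signalling gene had an unadjusted p under 0.05, as had 12.1% of all genes tested. Without the 3 libraries Ddit3 (-0.84, adjusted p = 0.0313) and Trib3 (-0.86, adjusted p = 0.0455) passed there as lower in Pcbp2βKO cells. With all libraries they had -0.73 (adjusted p = 0.723) and -0.62 (adjusted p = 0.743) and did not pass. The libraries left out were chosen from these same data and included the highest values of both genes at 16.7 mM. At 2.8 mM 1 gene, Uggt2, which re-glucosylates unfolded glycoproteins, was lower in Pcbp2βKO cells, at 13.8 ± 2.16 against 25.6 ± 6.30 CPM (SD, log2 -0.89, adjusted p = 0.0278; without the 3 libraries -0.88, adjusted p = 0.0181). Without them Fkbp11 also passed at 2.8 mM, at -0.62 (adjusted p = 0.0161), against -0.63 (adjusted p = 0.663) with all libraries. The samples compared were the same in both fits, since the libraries left out were all at 16.7 mM. The spread, however, is estimated over all 4 groups. The share of all genes called between the genotypes without the 3 libraries is not given here, so these calls describe stability only.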

How the data were processed

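RNA of sorted β cells from 17 samples in 4 groups was sequenced from polyadenylated RNA with an ultra-low-input kit. Per the labels and the study's methods, the authors quantified transcripts with kallisto (mm39) and deposited estimated counts and TPM per transcript. Versions are not given in the sources used here, and the study's model held a batch factor whose levels are not given here, so none was fitted. Expected counts as deposited were summed over the transcripts of each gene symbol and rounded, and deposited TPM were summed likewise. All columns were mapped to samples, with 0 left over.

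Genes were filtered with filterByExpr, scaled with TMM and fitted over all 4 groups with glmQLFit and glmQLFTest of edgeR 4.0.16 in R 4.3.3, which were tested on simulated data. Calls required a Benjamini-Hochberg adjusted p under 0.05 and a fold over 1.5, and intervals span 2 SE either side. TPM were fitted with limma 3.58.1 on log2(TPM + 1) and log2(TPM + 0.1), and DESeq2 1.42.0 was an alternative. Fold changes on log2(TPM + 1) understate those of low genes. Alternatives were other scalings, filters, tools, length-scaled counts, a replicate block, 2 groups only, and leaving out single samples or the 3 libraries that stood apart. For genes of the other lists, the fit without these libraries was added after seeing the data. The members and lists were chosen with earlier results of these data known. Per-sample values are given for the 12 members with the largest fold change among those called, and for Hspa5, Xbp1, Ern1, Atf6, Eif2ak3, Wfs1 and Ero1b. Same-numbered control samples of the 2 glucose levels deviated together (correlations of 0.123 to 0.258 over 3 pairs), so the block pairs them. For same-numbered Pcbp2βKO samples the range was 0.0664 to 0.193 over 5 pairs, in part below the limit of 0.1 set for pairing. All were above the highest correlation of differently numbered Pcbp2βKO samples, which was 0.0445. The block was a single factor over all samples, so it also paired these and joined same-numbered samples of both genotypes. Depth was 47385513 to 82419400 estimated counts per sample.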

Additional observations from a re-analysis of the deposited data

Results flagged for a closer look

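Of 108 sets of replicate values (36 members in the 3 groups with 4 or 5 samples), 9 held a sample whose gap to its nearest neighbour, relative to the range of the group, passed Dixon's 95% critical value. Chance alone flags about 1 in 20. In control cells at 16.7 mM replicate 4 was far below the others for Dnajc3 (511 CPM, nearest 1063), Pdia4 (509 CPM, nearest 909) and Edem2 (223 CPM, nearest 505). It is 1 of the 3 libraries that stood apart. In the same group replicate 3 was far above the others for Ern1 (251.03 CPM, nearest 156) and Sel1l (587 CPM, nearest 476). In Pcbp2βKO cells at 2.8 mM replicate 5 was far below the others for Atf6 (104 CPM, nearest 148) and Derl3 (0.889 CPM, nearest 7.61). Replicate 2 of that group was low for Atf6b (19.4 CPM, nearest 26.7) and Syvn1 (30.4 CPM, nearest 39.2).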

How the results depend on the processing

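Calls over all genes changed with the fit as well, so the counts of members called below describe stability only. The count of members called for glucose in control cells was the least stable. It was 13, and became 6 with total counts, 20 with the stricter filter, 22 with the replicate block, 7 with 2 groups only, 23 without the 3 libraries that stood apart, and 4 to 23 when 1 sample was left out (4 without replicate 2 at 2.8 mM, 23 without replicate 4 at 16.7 mM, and 6 or 7 without any other control sample). In Pcbp2βKO cells the count was 20, and became 13 with total counts, 12 with log2(TPM + 1) and 13 with log2(TPM + 0.1), and 18 to 24 when 1 sample was left out. Between the genotypes at 2.8 mM 0 members became 1 (Edem2, lower) with 2 groups only and 1 without the 3 libraries, and the median of the members moved from -0.30 to -0.05 with the replicate block. In Pcbp2βKO cells the block lost the call of Dnajb9 and gained that of Edem1. At 16.7 mM Ern1 was the 1 member called in each alternative, and the interaction gave 0 in each.

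Directions turned on the TPM scale for 18 of the 36 members in control and 19 in Pcbp2βKO cells, with either pseudocount, and the values below are of those called in either fit. With log2(TPM + 1), log2 fold changes in control cells became -0.0292 for Dnajc10, -0.60 for Xbp1, -0.0078 for Atf6b, -0.66 for Ern1, -0.17 for Wfs1 and -0.16 for Edem3. With log2(TPM + 0.1) these were -0.0302 for Dnajc10, -0.61 for Xbp1, -0.0084 for Atf6b, -0.68 for Ern1, -0.17 for Wfs1 and -0.17 for Edem3. In Pcbp2βKO cells the log2(TPM + 1) values were -0.96 for Hspa5, -0.39 for Hsp90b1, -0.45 for Dnajb9, -0.11 for Pdia6, -0.33 for P4hb, -0.25 for Dnajc10, -0.0060 for Ppib, -0.93 for Xbp1, -0.0766 for Atf6b, -0.17 for Wfs1 and -0.99 for Herpud1. With log2(TPM + 0.1) they were -0.96 for Hspa5, -0.39 for Hsp90b1, -0.45 for Dnajb9, -0.11 for Pdia6, -0.33 for P4hb, -0.26 for Dnajc10, -0.0062 for Ppib, -0.93 for Xbp1, -0.0820 for Atf6b, -0.69 for Eif2ak3, -0.17 for Wfs1 and -0.99 for Herpud1. Of all genes called in control cells, 51.7% were higher with TMM, 16.2% with total counts, 3.58% with log2(TPM + 1) and 4.97% with log2(TPM + 0.1), and in Pcbp2βKO cells 56.3%, 18.9%, 3.91% and 5.27%. The cause of these changes was not tested.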
